A study of Mus musculus with 8 samples.

Results

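The collagen hydroxylases and lysyl oxidases are the enzymes that modify collagen before and after it leaves the cell. The set held the lysyl hydroxylase genes Plod1, Plod2 and Plod3, the prolyl 4-hydroxylase alpha subunit genes P4ha1, P4ha2 and P4ha3, and the lysyl oxidase genes Lox, Loxl1, Loxl2 and Loxl3. Members were chosen by name, and a gene counted as measured where a probe set of the array carried its symbol and no other. By this rule 9 of the 10 genes were measured, among 18193 genes in all. Loxl2 is not analysed here, because its probe sets also carry the symbol of another gene. Where a gene had several probe sets, the one with the highest mean over the 8 arrays was used.

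Expression was measured in primary palatal mesenchyme cells of C57BL/6J mouse embryos, taken at embryonic day 13.5 and harvested for RNA after 2 passages in standard medium. The 4 mutant samples had the genotype Tgfbr2 fl/fl; Wnt1-Cre, and the 4 control samples the genotype Tgfbr2 fl/fl, so both groups carried the floxed alleles and only the mutants carried Cre. Wnt1-Cre is active in the neural crest lineage, and cells of any other origin in the cultures keep the TGF-beta type II receptor. Each sample was read on 1 Affymetrix array, whose values are log2 intensities. The labels do not say whether each sample came from its own embryo, so p-values reflect only how far these samples vary, and that variation may be technical.

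Collagen chains are hydroxylated in the endoplasmic reticulum by enzymes that need iron, oxygen, 2-oxoglutarate and ascorbate. Prolyl 4-hydroxylase makes the hydroxyproline that keeps the triple helix stable at body temperature, and lysyl hydroxylases make the hydroxylysine that carries sugars and shapes later cross-links. Outside the cell the lysyl oxidases, copper enzymes, oxidise lysine and hydroxylysine side chains, which then join into the covalent cross-links of collagen and elastic fibres. Several of these genes are known targets of TGF-beta signalling in fibroblasts and of the hypoxia-inducible factor HIF.

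Promoter sequences show where ACGTG, a form of the HIF core motif, lies in the P4ha genes, whose values are given further on. RefSeq promoters on GRCm38.p6, from 250 bases before to 50 bases after the annotated start, were listed for 5 of the 9 genes, namely P4ha1, P4ha2, P4ha3, Plod1 and Plod3. They were searched on both strands for ACGTG, the core of the HIF element, and for CAGAC, a short form of the Smad-binding element, and no match of one overlapped a match of the other. The 3 below are written 5′ to 3′ on the plus strand, the strand of each gene, and capitals mark ACGTG or its reverse complement. P4ha1 lies at chr10:59323046-59323345, P4ha2 at chr11:54100674-54100973 and P4ha3 at chr7:100285270-100285569.
P4ha1: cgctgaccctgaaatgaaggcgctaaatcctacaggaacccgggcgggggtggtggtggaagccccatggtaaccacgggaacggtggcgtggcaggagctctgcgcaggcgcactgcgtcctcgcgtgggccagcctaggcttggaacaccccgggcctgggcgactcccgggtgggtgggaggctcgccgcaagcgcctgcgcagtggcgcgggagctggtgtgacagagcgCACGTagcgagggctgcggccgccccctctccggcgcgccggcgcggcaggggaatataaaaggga
P4ha2: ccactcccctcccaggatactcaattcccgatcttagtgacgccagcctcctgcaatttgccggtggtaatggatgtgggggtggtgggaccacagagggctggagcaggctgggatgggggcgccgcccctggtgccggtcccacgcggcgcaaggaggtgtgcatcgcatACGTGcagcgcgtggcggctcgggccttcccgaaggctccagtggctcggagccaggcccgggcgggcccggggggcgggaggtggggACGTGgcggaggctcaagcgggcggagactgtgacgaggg
P4ha3: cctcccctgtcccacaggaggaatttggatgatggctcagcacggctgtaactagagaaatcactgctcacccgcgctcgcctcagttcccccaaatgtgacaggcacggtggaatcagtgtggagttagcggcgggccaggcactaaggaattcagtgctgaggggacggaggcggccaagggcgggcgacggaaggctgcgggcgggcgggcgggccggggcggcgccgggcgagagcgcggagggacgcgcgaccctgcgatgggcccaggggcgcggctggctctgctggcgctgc

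ACGTG matched once in the P4ha1 window, on the other strand and with its first base 16 bases before the start site. The P4ha2 window had 2 matches, beginning 78 bases before the start site and at base 11 of the transcript. The Plod3 window had 1, beginning 54 bases before the start site, and the windows of P4ha3 and Plod1 had 0. Of all 32851 promoters of this length in the table, 19.6% held ACGTG. The Smad form CAGAC matched in the Plod1 window alone among the 5, 74 bases before the start site, and 49.6% of all promoters held it. A match describes letters in a window and was not tested as a binding site.

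The arrays differed in ways that the labels do not mention. Markers of macrophages were bright, and 20 of 21 exceeded the median probe set on each of the 8 arrays. Their mean log2 intensity was 13.24, 13.22, 13.21 and 11.05 in mutants 1 to 4 and 12.43, 12.65, 11.18 and 11.05 in controls 1 to 4. Markers of mesenchyme, the labelled cell type, exceeded the median probe set throughout for 9 of 11, with array means of 11.22 to 11.79 in mutants and 11.29 to 11.73 in controls. The exceptions were Osr2, below it on all arrays (6.22 to 6.91), and Dlx5, at 6.48 to 7.09 in mutants and 7.76 to 8.13 in controls. Fewer epithelial (2 of 7), endothelial (1 of 6), skeletal muscle (2 of 6), chondrocyte (1 of 5) and osteoblast (1 of 3) markers exceeded the median probe set on every array. The spike-in bioB, added at hybridisation, had 6.34 to 6.52 in replicates 1 and 2 and 8.24 to 8.79 in replicates 3 and 4, whatever the genotype, and this division is called the hybridisation batch. The brightest Tgfbr2 probe set read 12.63, 12.76, 12.55 and 11.73 in mutants 1 to 4 and 12.40, 12.38, 11.72 and 11.66 in controls 1 to 4. The sources used here do not place its probes inside or outside the floxed segment, so it does not check the genotype labels. In bulk RNA, fewer cells of a type and less RNA per cell cannot be told apart.

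All 9 genes had a lower mean in mutant than in control cells, where 51.7% of all genes did, and none passed the test over all genes. The differences ran from -1.56 for Plod2 to -0.26 for Loxl1 on the log2 scale, with a median of -0.59, where the median of all genes was -0.01. Plod2 was lowest relative to control, at 34.0% of the control level, followed by P4ha3 (48.6%), P4ha1 (57.8%) and P4ha2 (57.9%). Loxl3 stood at 66.4%, Lox at 71.8%, Plod3 at 78.6%, Plod1 at 82.1% and Loxl1 at 83.8%. In limma with Benjamini-Hochberg adjustment over all genes 0 of 9 passed 0.05, against 0.0879% of all genes (0.066% lower and 0.022% higher). At an unadjusted p under 0.05, 5 of 9 were lower and 0 higher, where 9.69% of all genes were lower and 5.84% higher. The 5 were Plod2, P4ha1, P4ha3, Lox and Loxl3. Every mutant array lay below every control array for 2 of 9, Plod2 and P4ha1, where 5.18% of all genes did so. The reverse held for 0 of 9, against 2.89% of all genes. Of 6 further probe sets of 5 of these genes, 0 passed limma over all probe sets (background 0.00222%), and 2 were lower at an unadjusted p under 0.05 (background 7.20%).

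**Figure D1:**
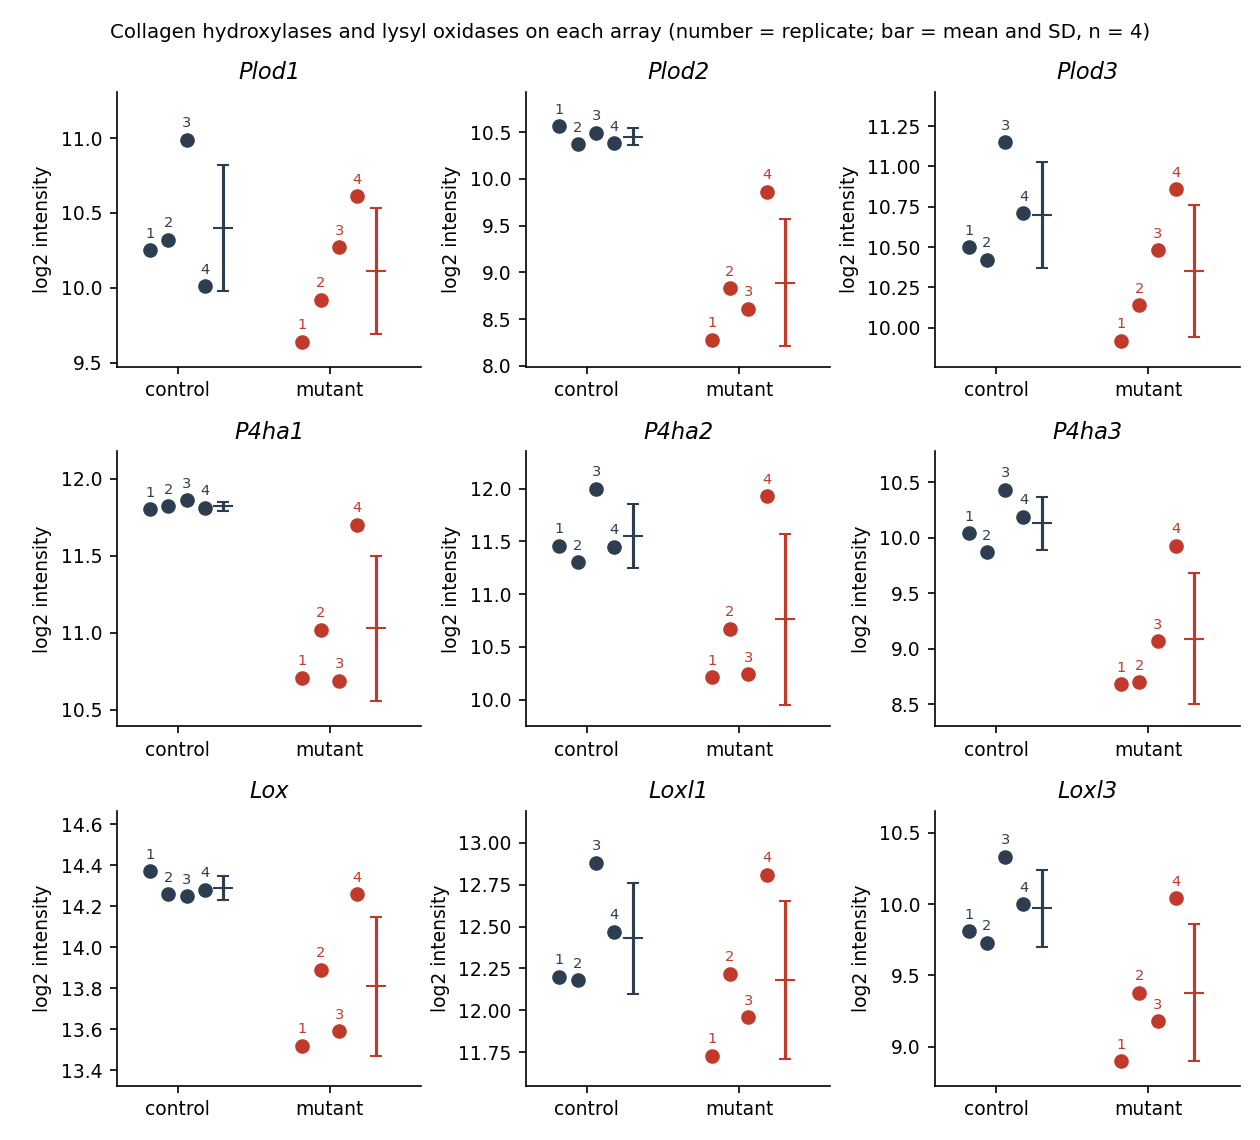
Log2 intensity (vertical axes, each with its own range) of the 9 genes on the 4 control (dark) and 4 mutant (red) arrays, numbered by replicate, with the mean and SD of each group beside the points. Mutant 4 is the highest mutant array in all 9 panels, and the control arrays of Plod2, P4ha1 and Lox lie close together.

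The lysyl hydroxylases differed in size. Plod2 encodes the enzyme that hydroxylates lysines in the telopeptides, the short ends of the collagen molecule, and so sets how many hydroxylysine-derived cross-links form. Its log2 intensity was 8.28, 8.83, 8.61 and 9.86 in mutants 1 to 4 and 10.56, 10.37, 10.49 and 10.38 in controls 1 to 4. The controls kept within 0.19 of each other, the mutants ranged over 1.58, and even the highest mutant lay below every control. The means were 8.89 ± 0.68 and 10.45 ± 0.09 (SD, n = 4 each), a difference of -1.56 (SE 0.30, 95% interval -2.24 to -0.87, limma adjusted p = 0.142). A further Plod2 probe set read 8.67 ± 0.64 against 10.28 ± 0.50 (SD, n = 4 each), with every mutant again below every control and a difference of -1.61 (SE 0.34).

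Plod1, which hydroxylates lysines within the helix, read 9.64, 9.92, 10.27 and 10.61 in mutants 1 to 4 and 10.25, 10.32, 10.99 and 10.01 in controls 1 to 4. The genotypes overlapped, with mutant 4 above 3 of the controls. The difference was -0.28 (SE 0.26, 95% interval -0.88 to 0.31, limma adjusted p = 0.629), and a dimmer Plod1 probe set differed by 0.03 (SE 0.11). Plod3 encodes the lysyl hydroxylase that also adds sugars to hydroxylysine, and it read 9.92, 10.14, 10.48 and 10.86 in mutants and 10.50, 10.42, 11.15 and 10.71 in controls. Only mutants 1 and 2 lay below all controls. Its difference was -0.35 (SE 0.23, 95% interval -0.87 to 0.18, limma adjusted p = 0.5).

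Plod2 had a more negative difference than Plod1 and Plod3 on the same arrays, though neither contrast passed once adjusted. The gap between 2 probe sets has no meaning of its own, since each has its own brightness, but its change between genotypes compares their 2 differences. Whether such a change reflects cell content, probe brightness or response of the cells was not tested here. In mutants the gap Plod2 minus Plod1 was -1.22 ± 0.39, and in controls it was 0.05 ± 0.40 (SD, n = 4 each), a change of -1.27. Plod2 minus Plod3 was -1.45 ± 0.38 and -0.25 ± 0.32 (SD, n = 4 each), a change of -1.21. In both, every mutant array lay below every control array, which gives an exact two-sided permutation p = 0.0286, the smallest that 4 against 4 arrays allow. Over the 9 pairs compared within the families the adjusted value was 0.0857, above the threshold. With so few arrays a pair could pass only if most of the 9 pairs reached the smallest p. Within replicates 1 and 2 the changes were -1.40 against Plod1 and -1.48 against Plod3, and within replicates 3 and 4 they were -1.14 and -0.94. Plod3 minus Plod1 changed by -0.06 (exact permutation p = 0.943), and its sign depended on the arrays used.

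**Figure D2:**
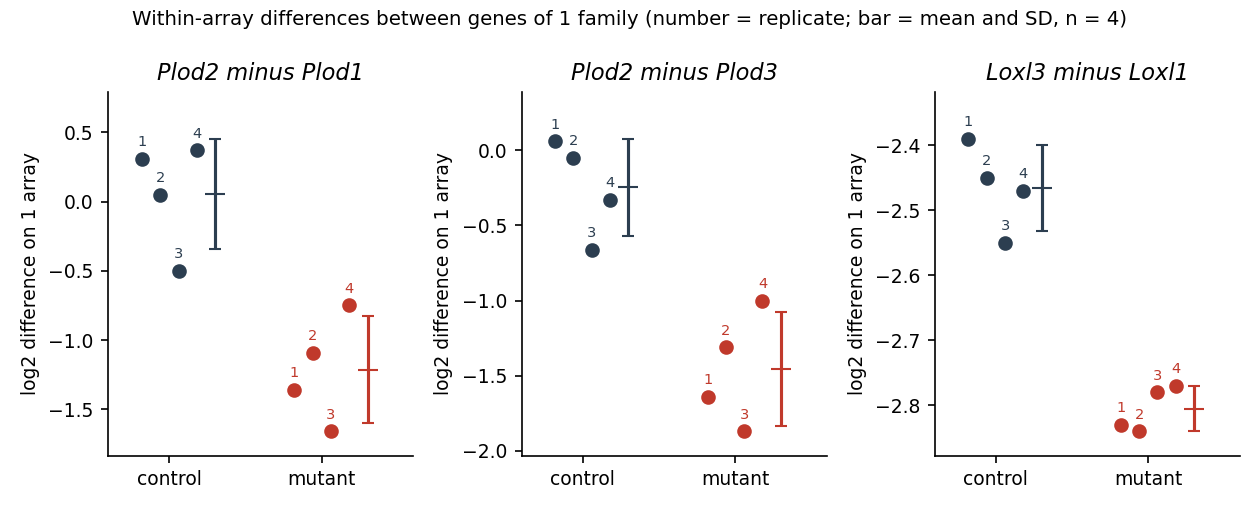
Difference in log2 intensity between 2 genes of a family on the same array (vertical axes, each with its own range), for the 4 control (dark) and 4 mutant (red) arrays numbered by replicate, with mean and SD. In each of the 3 pairs shown, chosen because the genotypes do not overlap, all mutant arrays lie below all control arrays.

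The prolyl 4-hydroxylase subunits were all lower in mutants 1 to 3. P4ha1 encodes the main catalytic subunit of most mesenchymal cells. It read 10.71, 11.02, 10.69 and 11.70 in mutants 1 to 4 and 11.80, 11.82, 11.86 and 11.81 in controls 1 to 4. The controls kept within 0.06 of each other, and mutant 4 came close to them without overlap. The difference was -0.79 (SE 0.21, 95% interval -1.27 to -0.31, limma adjusted p = 0.189), from 11.82 ± 0.03 to 11.03 ± 0.47 (SD, n = 4 each). A dimmer P4ha1 probe set differed by -0.56 (SE 0.25), and there the genotypes overlapped.

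P4ha2, an alternative catalytic subunit, read 10.21, 10.67, 10.24 and 11.93 in mutants and 11.46, 11.30, 12 and 11.45 in controls. Mutants 1 to 3 lay below all controls, while mutant 4 was above 3 of them. With this spread the difference of -0.79 had an SE of 0.37 and a 95% interval of -1.63 to 0.06 (limma adjusted p = 0.349). P4ha3, the third catalytic subunit, read 8.68, 8.70, 9.07 and 9.93 in mutants and 10.04, 9.87, 10.43 and 10.19 in controls. Mutant 4 lay just above control 2, the only overlap. The difference was -1.04 (SE 0.28, 95% interval -1.67 to -0.41, limma adjusted p = 0.189).

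No pair of P4ha genes had unequal differences beyond the spread between arrays, which does not show that their differences are equal. P4ha2 minus P4ha1 changed by 0.00, from -0.27 ± 0.28 in controls to -0.27 ± 0.34 in mutants (SD, n = 4 each). P4ha3 changed by -0.25 relative to either of the others, with exact two-sided permutation p = 0.2 against P4ha1 and 0.286 against P4ha2. P4hb, the disulfide isomerase that is the other subunit of the enzyme, was read at 13.58 ± 0.14 in mutants and 13.72 ± 0.11 in controls (SD, n = 4 each), a difference of -0.14 (SE 0.09, limma adjusted p = 0.519).

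Among the lysyl oxidases, Loxl3 and Lox differed by more than their standard errors and Loxl1 by about its own. Lox, the founding member, was near the top of the array's range, with 13.52, 13.89, 13.59 and 14.26 in mutants 1 to 4 and 14.37, 14.26, 14.25 and 14.28 in controls 1 to 4. Mutants 1 to 3 lay below all controls and mutant 4 was level with them. The difference was -0.48 (SE 0.16, 95% interval -0.84 to -0.12, limma adjusted p = 0.232). Both further Lox probe sets were lower in mutants, by -0.59 (SE 0.30) for the next brightest and -0.50 (SE 0.18) for the dimmest, which was below the median probe set on all arrays.

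Loxl3, whose loss in mice is known to cause cleft palate, read 8.90, 9.38, 9.18 and 10.04 in mutants and 9.81, 9.73, 10.33 and 10 in controls. Mutants 1 to 3 lay below all controls, and mutant 4 was above 3 of them. The difference was -0.59 (SE 0.24, 95% interval -1.14 to -0.04, limma adjusted p = 0.298). Loxl1, which is needed for elastic fibre upkeep, read 11.73, 12.22, 11.96 and 12.81 in mutants and 12.20, 12.18, 12.88 and 12.47 in controls. The genotypes overlapped, and the difference was -0.26 (SE 0.25, 95% interval -0.82 to 0.31, limma adjusted p = 0.656). A dimmer Loxl1 probe set gave -0.27 (SE 0.21).

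Loxl3 and Loxl1 moved together from array to array, offset by genotype. Loxl3 minus Loxl1 gave a gap of -2.80 ± 0.04 for mutants and -2.47 ± 0.07 for controls (SD, n = 4 each). It changed by -0.34, with all mutant arrays below all controls (exact two-sided permutation p = 0.0286, adjusted over 9 pairs 0.0857). The change was -0.41 within replicates 1 and 2 and -0.26 within replicates 3 and 4. It was -0.34 with the macrophage marker mean as a covariate. Relative to Lox, Loxl3 changed by -0.11 (exact permutation p = 0.6) and Loxl1 by 0.22 (exact permutation p = 0.286).

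Single arrays set much of the spread. Mutant 4 was the highest mutant array for 9 of 9 genes, by 0.59 (Lox) to 1.55 (P4ha2) over the mean of the other mutants. Mutant 1 was the lowest mutant for 8 of 9. Control 3 was the highest control for 7 of 9, the exceptions being Plod2 and Lox, and control 2 the lowest for 6 of 9. The mean over the 9 genes was 10.18, 10.53, 10.45 and 11.33 in mutants 1 to 4 and 11.22, 11.14, 11.60 and 11.26 in controls 1 to 4. Mutant 4 thus lay among the controls, and it was also the mutant with the lowest macrophage marker mean.

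**Figure D3:**
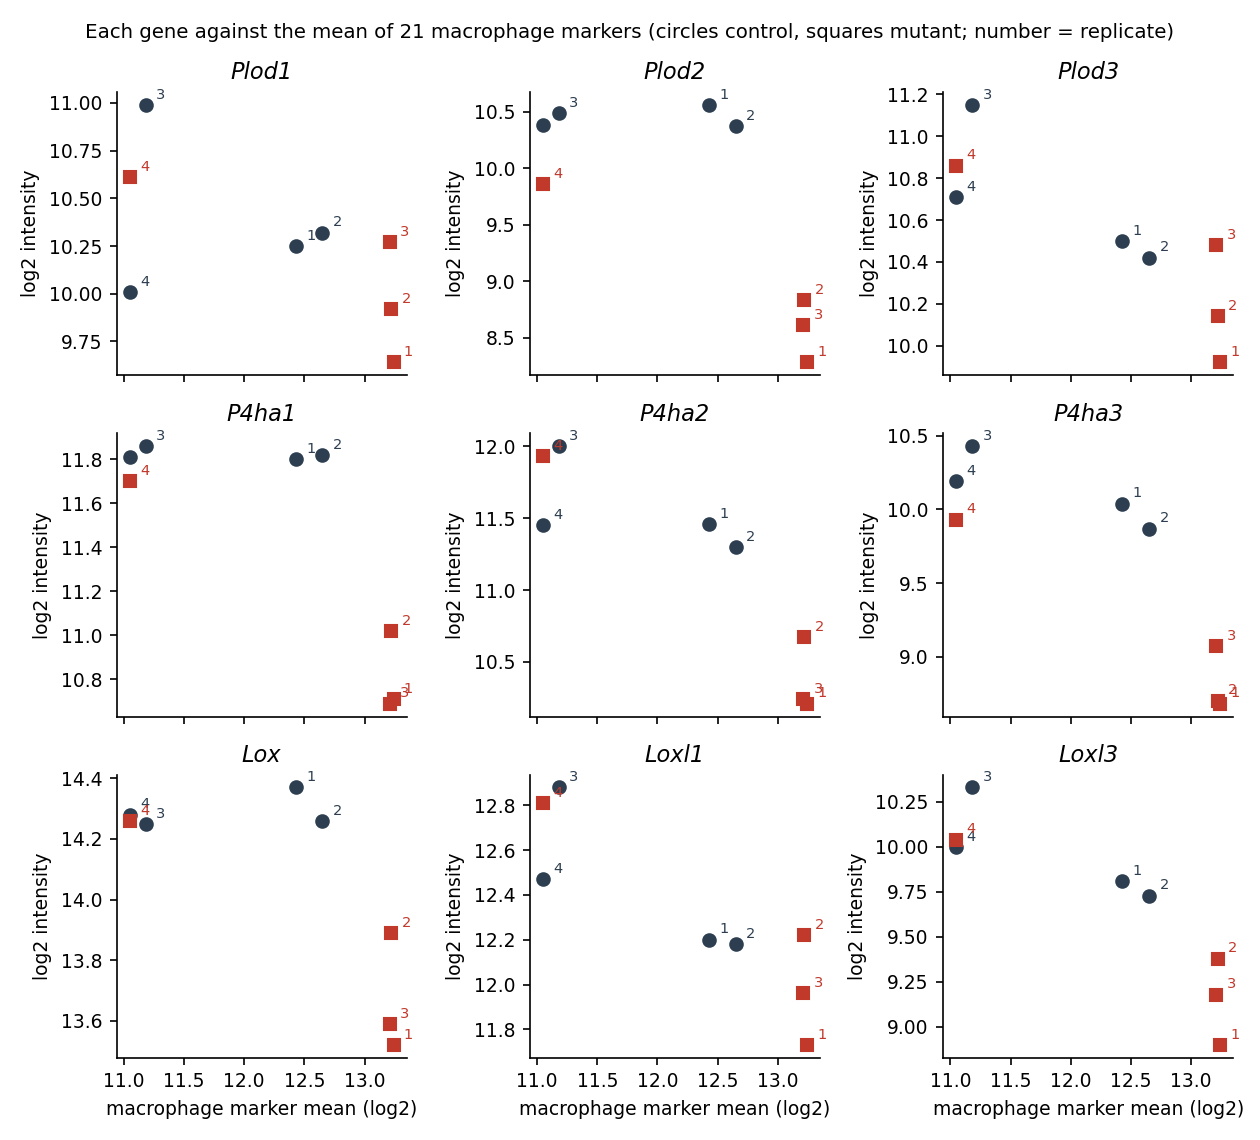
Log2 intensity of each gene (vertical axes, each with its own range) against the mean log2 intensity of 21 macrophage markers on the same array (horizontal axis), with controls as dark circles and mutants as red squares, numbered by replicate. Mutants 1 to 3 sit at marker means of 13.21 to 13.24 with the lowest values of Plod2, P4ha1, P4ha2, P4ha3, Lox and Loxl3. Among controls, Plod2, P4ha1 and Lox range over at most 0.19, while the other 6 range over 0.56 to 0.98 with control 3 highest.

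Because mutant 4 was the highest mutant array for all 9 genes, leaving it out necessarily makes every difference more negative. The fit without it is therefore a description of its weight. Without mutant 4, 6 of 9 genes passed limma over all genes at 0.05 (adjusted p from 0.00744 to 0.0363), where 3.49% of all genes were called lower. These were Plod2 (-1.88), P4ha3 (-1.32), P4ha2 (-1.18), P4ha1 (-1.02), Loxl3 (-0.81) and Lox (-0.63). Leaving out any other array gave 0 of 9, and with mutant 1 left out 0% of all genes were called lower. With limma array weights 5 of 9 passed, where 5.10% of all genes were called lower. These weights were estimated from how far each array departs from its group in these data, not from a separate measure of quality. They were highest for replicates 1 and 2 (1.67 to 2.351) and lowest for mutant 4 (0.355). This fit is therefore not independent of the fits without mutant 4 or on replicates 1 and 2 alone. Replicates 1 and 2 were the closest arrays of each genotype. The SD of their log2 differences over probe sets was 0.21 for the mutants and 0.19 for the controls, against 0.30 to 0.52 for other arrays of 1 genotype. The labels do not say whether they share an embryo or culture, so tests on them alone may rest on technical spread. Within replicates 1 and 2 alone 6 of 9 passed, where 6.43% of all genes were called lower. They were Plod2 (-1.91), P4ha3 (-1.27), P4ha1 (-0.94), P4ha2 (-0.94), Lox (-0.61) and Plod1 (-0.51). Within replicates 3 and 4 alone 0 of 9 passed in limma, where 0 of all genes were called. Of the 9, 0 had an unadjusted p under 0.05, a count without its share over all genes. Their differences ran from -1.20 for Plod2 to -0.06 for Plod1. All 9 were negative in both batches.

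With the macrophage marker mean as a covariate the differences were smaller. Plod2 kept -1.24 (SE 0.24, limma adjusted p = 0.0816), P4ha3 -0.68 (SE 0.15), P4ha1 -0.57 (SE 0.16) and Lox -0.34 (SE 0.14). P4ha2 fitted at -0.33 (SE 0.23) and Loxl3 at -0.29 (SE 0.14). Plod1 and Plod3 were both at -0.08, with SE 0.25 and 0.16, and Loxl1 was at 0.05 (SE 0.15), on the other side of 0. None of the 9 passed, and the median over them was -0.33. Controls 1 and 2 exceeded controls 3 and 4 by over 1 log2 unit in the macrophage mean, and the genes did not share 1 pattern among the controls. Plod2, P4ha1 and Lox ranged over 0.19, 0.06 and 0.12 there. The other 6 ranged over 0.56 (P4ha3) to 0.98 (Plod1), and control 3, with a macrophage mean of 11.18, was the highest control for each of them. Control 4, with a macrophage mean of 11.05, was second highest for Plod3, P4ha3, Loxl1 and Loxl3. It was the lowest control for Plod1 (10.01) and level with control 1 for P4ha2 (11.45 and 11.46). The further probe sets of Plod2 and P4ha1, and the next brightest of Lox, were not level among controls. They ranged over 9.56 to 10.67, 7.81 to 8.89 and 12.89 to 13.83, and control 3 was the lowest in each. The dimmest Lox probe set ranged over 5.50 to 5.92 among controls, with control 2 lowest. The part of cell content in these differences, and in those of the related genes below, was not tested beyond the covariate.

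**Figure D4:**
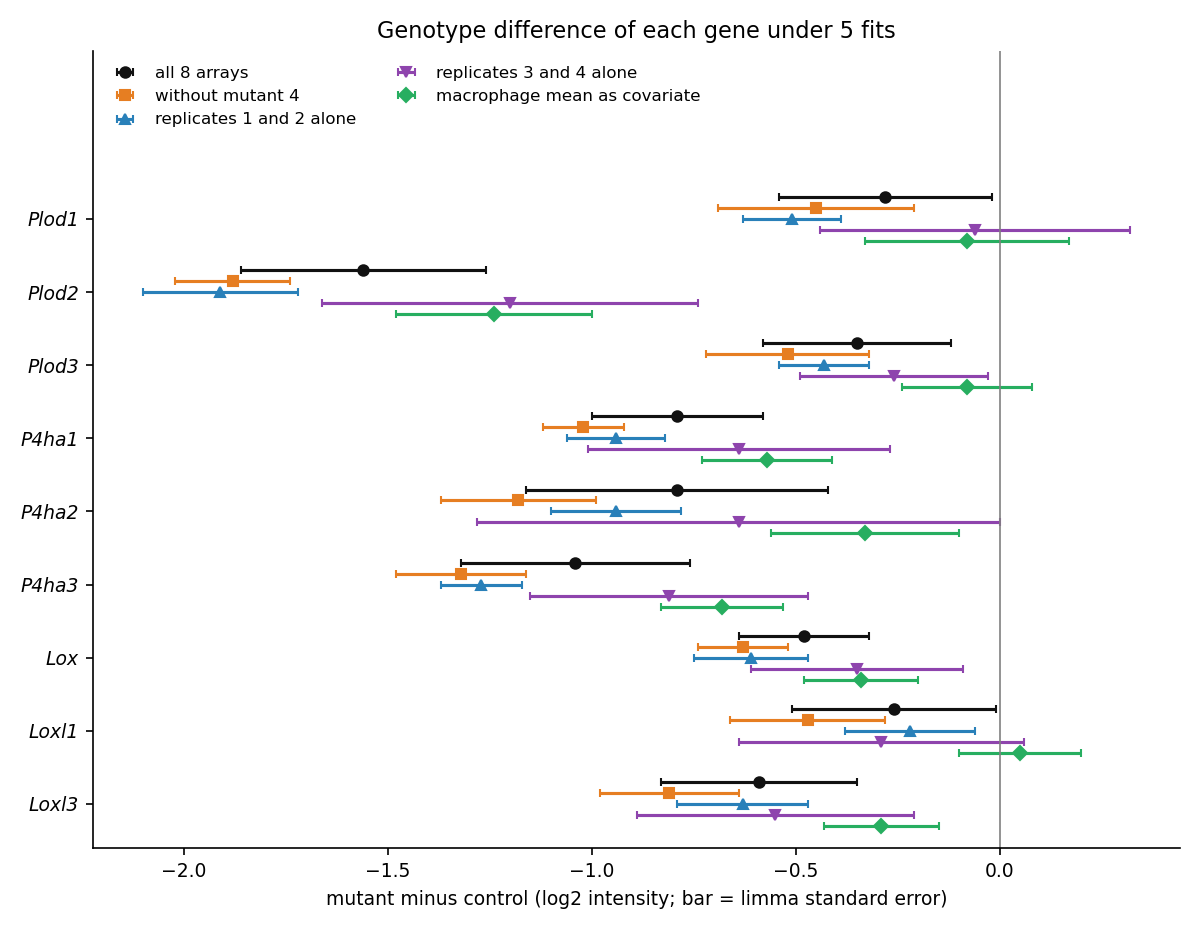
Mutant minus control difference in log2 intensity (horizontal axis, bars show the limma standard error) of the 9 genes under 5 fits, namely all 8 arrays, without mutant 4, replicates 1 and 2 alone, replicates 3 and 4 alone, and the macrophage marker mean as a covariate. Plod2 lies farthest from 0 in each fit, from -1.91 to -1.20, and Loxl1 crosses 0 with the covariate.

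Other genes of collagen modification and folding were mostly lower too. Of 17 measured, 15 had a negative difference (51.7% of all genes did), with a median of -0.40. None passed limma over all genes, and at an unadjusted p under 0.05 there were 7 lower and 1 higher (background 9.69% lower and 5.84% higher). Fkbp9 and Fkbp14, prolyl isomerases of the endoplasmic reticulum, differed by -0.47 (SE 0.12) and -0.65 (SE 0.17), with every mutant array below every control array. The collagen chaperone gene Serpinh1, also without overlap, differed by -0.45. The prolyl 3-hydroxylase genes P3h1 and P3h3 differed by -0.88 (SE 0.29) and -0.74 (SE 0.20), and there the genotypes overlapped. P3h2 and P3h4 differed by -0.06 (SE 0.23) and -0.55 (SE 0.17), the latter without overlap. Loxl4, the remaining lysyl oxidase gene, differed by -0.47 (SE 0.23, limma adjusted p = 0.37). Tmem38b, an ion channel of the endoplasmic reticulum whose loss impairs collagen modification, was higher by 0.96 (SE 0.25).

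Procollagen processing genes had a median of -0.63 over 6 measured. Of these, 0 passed limma over all genes (background 0.0879%), and 3 were lower at an unadjusted p under 0.05 (background 9.69%). Pcolce2, an enhancer of C-propeptide cleavage, read 7.54 ± 0.51 in mutants and 9.13 ± 0.40 in controls (SD, n = 4 each), a difference of -1.58 (SE 0.28, limma adjusted p = 0.13). Only 2 of the 6 exceeded the median probe set (6.94) on all arrays. The propeptidase genes Tll1 and Adamts3 were below it in mutants 1 to 3, at 4.96 to 5.87 and 6.33 to 6.68, so the sizes of their differences, -2.47 (SE 0.69) and -0.87 (SE 0.24), rest on dim values. Bmp1, the main C-propeptidase and an activator of pro-lysyl oxidase, differed by -0.38 (SE 0.31).

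The substrates of these enzymes were measured on the same arrays. Of 12 genes of fibril-forming collagens and elastin, 9 were negative (51.7% of all genes were) with a median of -0.38. Of these 12, 0 passed limma over all genes (background 0.0879%), and 7 were lower at an unadjusted p under 0.05 (background 9.69%). Col11a1 differed by -1.26 (SE 0.33), Col5a1 by -0.58 (SE 0.16) and Col5a2 by -0.53 (SE 0.16), each with no overlap of the genotypes. Col1a1 and Col1a2, the chains of type I collagen, differed by -0.37 and -0.16, also without overlap. Every mutant array lay below every control array for 6 of the 12, where 5.18% of all genes did so. Elastin (Eln) read 8.13 ± 0.17 in mutants and 8.11 ± 0.60 in controls (SD, n = 4 each).

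Genes that supply ascorbate and copper, cofactors of the enzymes, lay on both sides of 0. The 6 had a median of 0.03, with 3 negative and 3 positive (51.7% of all genes were negative). None passed limma over all genes (background 0.0879%). The ascorbate transporter gene Slc23a2 and the copper chaperone gene Atox1 were both higher by 0.26 (SE 0.09 and 0.10, limma adjusted p = 0.262 and 0.287). They were the 2 of 6 at an unadjusted p under 0.05, where 5.84% of all genes were higher. Atp7b, a copper pump, differed by 0.07 (SE 0.12).

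Targets of HIF and of TGF-beta outside the set gave the following. Of 17 other HIF targets 13 were negative (51.7% of all genes were) with a median of -0.33. None passed limma over all genes (background 0.0879%). At an unadjusted p under 0.05 there were 5 lower and 1 higher (background 9.69% lower and 5.84% higher). Ddit4, an inhibitor of mTOR signalling, differed by -0.77 (SE 0.18) and Ankrd37 by -0.59 (SE 0.15), while Adm, the vasoactive peptide adrenomedullin, was higher by 0.91 (SE 0.30) with no overlap. Of 15 other TGF-beta induced genes 12 were negative with a median of -0.37, and 0 passed limma over all genes. At an unadjusted p under 0.05 there were 3 lower, against the same backgrounds. N-cadherin (Cdh2) differed by -0.86 (SE 0.24), the feedback inhibitor gene Pmepa1 by -1.04 (SE 0.31) and periostin (Postn) by -0.37 (SE 0.12). Without mutant 4 the list medians were -0.45 for the HIF targets, -0.52 for the TGF-beta induced genes, -0.55 for other modification and folding genes, -0.84 for procollagen processing and -0.45 for fibril-forming collagens and elastin. Under the macrophage covariate, the median was -0.21 for the HIF targets and -0.03 for the TGF-beta induced genes, against -0.20, -0.52 and -0.31 for the other 3 in the same order. The mesenchyme markers had a median of -0.15 and the macrophage markers one of 0.77, all 21 of them positive.

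**Figure D5:**
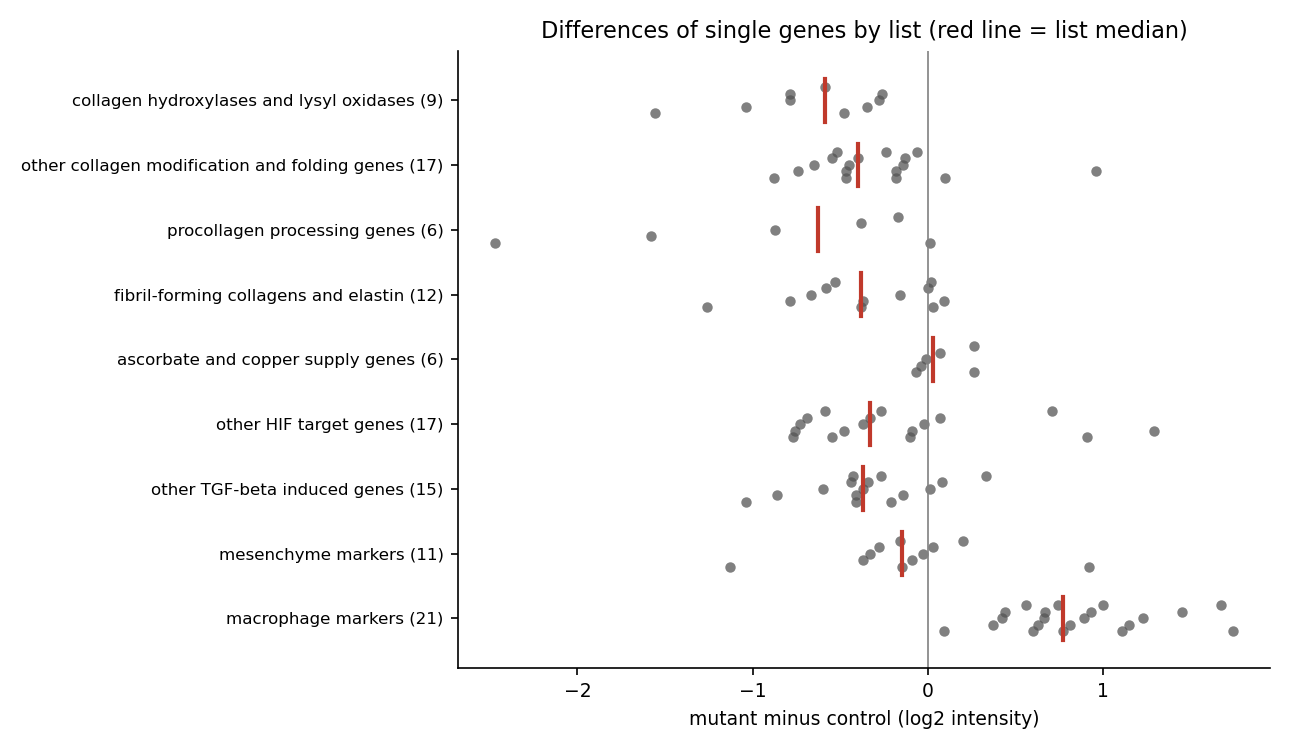
Mutant minus control difference in log2 intensity (horizontal axis) of every measured gene (grey points, spread vertically for visibility) in 9 lists, with the number measured in brackets and the list median as a red line. Medians run from -0.63 for procollagen processing and -0.59 for the collagen hydroxylases and lysyl oxidases to 0.03 for ascorbate and copper supply and 0.77 for macrophage markers.

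Genes with profiles most like the 3 members that differed most were sought among 11694 genes brighter than the median probe set. Likeness was the root mean square difference between 2 profiles over the 8 arrays, each minus its own mean. Nearest to Plod2, whose own spread was 0.88, were the heparan sulfate 6-O-sulfotransferase gene Hs6st2 at 0.17, the filamin-binding gene Rflnb at 0.20 and Bcat1, a branched-chain amino acid transaminase, at 0.23. Nearest to P4ha3 (own spread 0.65) were the stress-induced gene Nupr1 at 0.15, Fkbp11 at 0.16 and the mitochondrial serine hydroxymethyltransferase gene Shmt2 at 0.17. For P4ha1 (own spread 0.49) they were Ptgfrn at 0.08, the growth hormone receptor gene Ghr at 0.09 and Abtb2 at 0.11. These genes share the arrays and the genotype contrast with the members, and the likeness is given as a description.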

How the data were processed

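Biotin-labelled RNA of 8 samples was read on Affymetrix mouse arrays, per the labels' protocols. The deposited values are log2 intensities that the authors processed with RMA, per the submitters' processing notes, which give no version. They ran from 3.21 to 15.18, with array medians of 6.90 to 6.96, and were used as deposited. The number of arrays limits the precision.

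Of 45101 probe sets, 34945 carried 1 gene symbol, 932 carried several, and 9160 had no entry in the platform's gene table. The 64 array controls were left out of the tests. Symbols were updated by Entrez identifier through a RefSeq table of GRCm38.p6, which matched 34741 probe sets and gave names only. Groups came from the sample titles.

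Differences (mutant minus control) were fitted over all 18193 genes, and over all 45037 probe sets for further probe sets, with limma 3.58.1 in R 4.3.3 (lmFit, eBayes, two-sided, no covariate). P-values were adjusted with Benjamini-Hochberg at a threshold of 0.05; SE values and 95% intervals are limma's. Gaps between genes of a family were compared by exact permutation over the 9 pairs available. The code was tested on simulated data. Percentages of control are 2 to the power of the log2 difference.

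Members, lists and tests were chosen with earlier results of these data known. Named genes were all members, up to 3 genes of each related list with the smallest p, and the 3 most alike profiles for the 3 members with the largest difference. P4hb, Serpinh1, P3h1, P3h2, P3h3, P3h4, Loxl4, Bmp1, Col1a1, Col1a2 and Eln were added after their values were seen. Alternatives covered normalisation, probe set choice, dim genes, variance model, array weights, threshold, batches, the macrophage covariate and leaving out each array. Averaging the closest arrays, and the alternatives for lists, were chosen after seeing the data. Batches are not named in the labels and were split at the largest gap in the array control means.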

Additional observations from a re-analysis of the deposited data

How the results depend on the processing

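The 9 gene differences were recomputed under 22 alternatives, and 197 of 198 values stayed negative. The exception was Loxl1 at 0.05 with the macrophage covariate. The alternatives reuse the same arrays, so these values are not independent and are given as a description. The replicate block and the hybridisation batch as a term left the differences unchanged by design. Against 16 genes called among all genes, 0 members called and 5 members at an unadjusted p under 0.05, array weights (0.355 for mutant 4) gave 1470 and 5 for the first 2 counts. Replicates 1 and 2 alone gave 2085, 6 and 8, and replicates 3 and 4 alone gave 0 genes called and 0 members at an unadjusted p under 0.05. The share of all genes at that unadjusted threshold was computed only for the fit of all 8 arrays without covariate, at 15.5%. Unadjusted member counts of the alternatives thus have no background beside them and are given as a description. The labelling batch, which no label names, was a split at the largest gap in the poly-A control means. Mutants 1 and 2 and controls 1, 2 and 4 lay above it (8.53 to 9.21). Mutants 3 and 4 and control 3 lay below it (6.77 to 7.56). As a term this split gave 2 genes called and 8 members at an unadjusted p under 0.05. Replicates 1 and 2 of each genotype, the closest arrays, averaged gave 0 and 3. Genes called numbered 58 with the macrophage covariate, 3 with the most variable probe set and 41 at a threshold of 0.10. Leaving out 1 array gave 0 (without mutant 1, mutant 2 or control 1) to 1316 (without mutant 4) genes called, 0 to 6 members called and 4 to 8 members at an unadjusted p under 0.05, with medians of the members from -0.81 to -0.43. The titles do not say that same-numbered arrays are pairs, so the numbers were not taken to pair them. Same-numbered arrays of the genotypes deviated together with r of 0.473, 0.416, -0.092 and 0.371. The control most like mutants 1 to 4 was number 2, 1, 2 and 3, and the mutant most like controls 1 to 4 was number 1, 1, 4 and 4. With the replicate block 0 genes and 0 members were called, and 5 members had an unadjusted p under 0.05. The change in Plod3 minus Plod1 was 0.08 within replicates 1 and 2 and ran from -0.13 to 0.07 with 1 array left out. For Loxl3 minus Lox it was 0.05 with the covariate and ran from -0.19 to 0.02 with 1 array left out. The cause of these shifts was not tested. None of the 9 pairs passed in any alternative with a test. The exact permutation test could not reach 0.05, whatever the values, within either pair of replicates alone or with the closest arrays averaged. The same held with the replicate block or the hybridisation batch as a term. In the other alternatives a pair could pass only where most of the 9 pairs reached the smallest possible p. Failure to pass therefore does not show equal differences. All 9 members were brighter than the median probe set on all arrays.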
